A study of Homo sapiens with 20 samples.

Results

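SAMHD1, BST2, RSAD2, SLFN5, SLFN11, SLFN12 and SLFN13 are genes whose proteins restrict viruses or belong to the Schlafen family, and their transcripts were followed in U2OS osteosarcoma cells with and without interferon gamma (IFNγ). The genes were chosen by symbol, 7 of the 43366 genes in the deposited count table, with no cut-off on a measured value. Earlier results of these data were known when they were chosen. Polyadenylated RNA was sequenced from 5 wild-type (WT) clones and 5 clones with a ZBTB48 knockout (KO), every clone both without IFNγ and after exposure to 250 U/ml of it for 24 h, giving 4 groups of 5 libraries. Each clone is a line of its own from the same cell line, so a group holds 5 clones and every library is 1 culture. ZBTB48 is a zinc finger protein that binds telomeric repeats and some promoters, and the design asks whether its loss alters transcription under IFNγ.

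IFNγ signals through JAK kinases to the GAS element of target promoters, and through IRF1 and related factors, which bind GAAA repeats such as the interferon-stimulated response element (ISRE). Restriction factors are proteins that block a step of viral replication, and many are kept low until interferon arrives. Schlafen genes lie next to each other in a cluster, encode proteins that bind or cut RNA or act at stalled replication forks, and include several known interferon targets.

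Levels are given as CPM, a gene's counts scaled to the size of its library (TMM). Library totals ran from 46652288 to 72952859 counts assigned to genes over the 20 libraries. A gene was called changed at an adjusted p under 0.01 and a difference over 2-fold, by edgeR's quasi-likelihood test on raw counts. Over the 10 bone-forming lineage markers examined, 5 were above 3 counts in every library of each group and the summed level was 1326 to 9245 CPM, whereas IBSP, a bone matrix gene, was at or under 3 counts in all 20 libraries. The summed level was 0.848 to 2.67 CPM for 7 leukocyte markers, 0.766 to 13.8 CPM for 4 epithelial markers and 1.11 to 4.13 CPM for 3 endothelial markers.

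ZBTB48 itself (chr1:6579994-6589280, GRCh38) was at 8.03 to 9.44 CPM in the untreated WT libraries and 8.81 to 11.6 CPM in the treated ones. The KO libraries of replicates 1, 2, 4 and 5 held 1.29 to 4.06 CPM untreated and 1.69 to 5.27 CPM treated. Both libraries labelled KO replicate 3 held more, at 11.3 CPM untreated and 15.8 CPM treated, above every WT library of the same treatment. The RNA level alone does not show whether a knockout removed the protein, which these data do not measure. The label of KO replicate 3 was therefore kept. The KO libraries of replicates 4 and 5 were doubtful as pairs. Over 14753 genes, the treated library labelled KO replicate 4 correlated at 0.83 with untreated replicate 5 and at 0.02 with its own number, and treated replicate 5 at 0.76 with untreated replicate 4 and 0.08 with its own. All other treated libraries correlated best with their own number, at 0.69 to 0.88. Exchanging those libraries within a group alters no group mean or unpaired test. The calls of the 7 genes were recomputed without KO replicate 3 and without KO replicates 4 and 5, and those that changed are given with the results.

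Promoter sequence of 5 of the 7 genes was taken from RefSeq (GRCh38.p14), as windows from 250 bases before to 50 bases after an annotated RNA start. No window was at hand for SLFN5, which rose with IFNγ, or for SLFN13. Of each window the 200 bases before the start are shown, 5′ to 3′ on the gene's strand, to set the genes that rose beside those that did not. Capitals mark the letters matched by 3 patterns searched on both strands: the ISRE core GAAANNGAAA, the GAS pattern TTCNNNGAA, and GAAA repeated after 1 to 3 bases, a pattern that includes every ISRE core match.
BST2, chr19:17405631-17405830 (minus strand): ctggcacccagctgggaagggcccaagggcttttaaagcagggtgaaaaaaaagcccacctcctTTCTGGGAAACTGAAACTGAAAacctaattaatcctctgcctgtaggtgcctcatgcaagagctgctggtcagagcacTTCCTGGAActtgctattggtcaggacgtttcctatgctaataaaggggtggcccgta
RSAD2, upstream start, chr2:6865685-6865884 (plus strand): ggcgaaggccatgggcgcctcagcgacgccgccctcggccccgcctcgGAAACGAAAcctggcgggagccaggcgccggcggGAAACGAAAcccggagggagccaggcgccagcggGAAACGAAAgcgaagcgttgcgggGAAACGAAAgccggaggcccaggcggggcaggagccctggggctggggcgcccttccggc
RSAD2, internal start, chr2:6877577-6877776 (plus strand): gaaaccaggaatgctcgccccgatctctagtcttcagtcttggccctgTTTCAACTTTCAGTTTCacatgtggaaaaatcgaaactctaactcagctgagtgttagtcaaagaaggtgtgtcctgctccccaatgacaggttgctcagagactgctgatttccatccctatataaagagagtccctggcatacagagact
SAMHD1, chr20:36951709-36951908 (minus strand): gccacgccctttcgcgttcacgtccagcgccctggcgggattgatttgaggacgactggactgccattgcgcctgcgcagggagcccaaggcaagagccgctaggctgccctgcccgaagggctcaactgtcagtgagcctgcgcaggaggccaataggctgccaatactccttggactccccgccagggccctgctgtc
SLFN11, chr17:35373622-35373821 (minus strand): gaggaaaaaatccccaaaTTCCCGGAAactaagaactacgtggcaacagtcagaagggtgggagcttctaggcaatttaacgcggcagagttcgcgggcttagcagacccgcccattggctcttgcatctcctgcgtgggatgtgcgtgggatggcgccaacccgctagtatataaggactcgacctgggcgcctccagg
SLFN12, chr17:35433175-35433374 (minus strand): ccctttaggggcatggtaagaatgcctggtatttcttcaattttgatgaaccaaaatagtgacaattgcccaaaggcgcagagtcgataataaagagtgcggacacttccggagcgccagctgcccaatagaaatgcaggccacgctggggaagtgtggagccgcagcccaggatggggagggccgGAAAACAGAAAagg

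The BST2 window held 2 ISRE cores, both reading GAAACTGAAA and sharing 4 bases, at positions -130 to -121 and -124 to -115 from the RNA start. It also held 2 GAS matches, at -136 to -128 and at -58 to -50, the first overlapping the first ISRE core. RSAD2 has 2 annotated starts, 11892 bases apart. The upstream start had no ISRE core but 4 copies of GAAACGAAA, beginning at -152, -118, -84 and -60, and the internal start had 1 ISRE core, read on the opposite strand at -145 to -136, with a second GAAA repeat overlapping it. The SLFN11 window held 1 GAS match at -182 to -174, the SLFN12 window held 1 GAAA repeat at -14 to -4, and the SAMHD1 window held none of the 3 patterns. Of 35116 RefSeq windows of the same length, 3.57% held an ISRE core, 7.66% a GAS match and 8.68% a GAAA repeat. These matches describe letters in a window and were not tested for binding.

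In WT clones, IFNγ raised 4 of the 7 genes: BST2, RSAD2, SAMHD1 and SLFN5. The fitted differences ran from 6.2-fold for SLFN5 to 82-fold for BST2, none of the 7 genes was called lower, as 0.512% of genes were, and SLFN11, SLFN12 and SLFN13 were not called. Among all 19522 genes tested, 2.48% were called higher. The median log2 fold change of the 7 genes was 2.64, against -0.03 over all genes tested. For 5 of the 7 the treated libraries all lay above the untreated ones, a state found in that direction for 6.68% of the genes tested.

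In KO clones, 3 genes rose, RSAD2, SAMHD1 and SLFN5, where 1.7% of 19385 genes were called higher. BST2 was the gene called in WT clones and not in KO clones. The median log2 fold change was 2.44, against -0.03 over all genes, and in 4 of the 7 the treated KO libraries lay above all untreated ones, as for 6.07% of genes. Without the libraries labelled KO replicate 3, of SAMHD1, RSAD2 and SLFN5 only SAMHD1 was called, and without replicates 4 and 5 none of the 7 was, with 3 clones left.

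**Figure D1:**
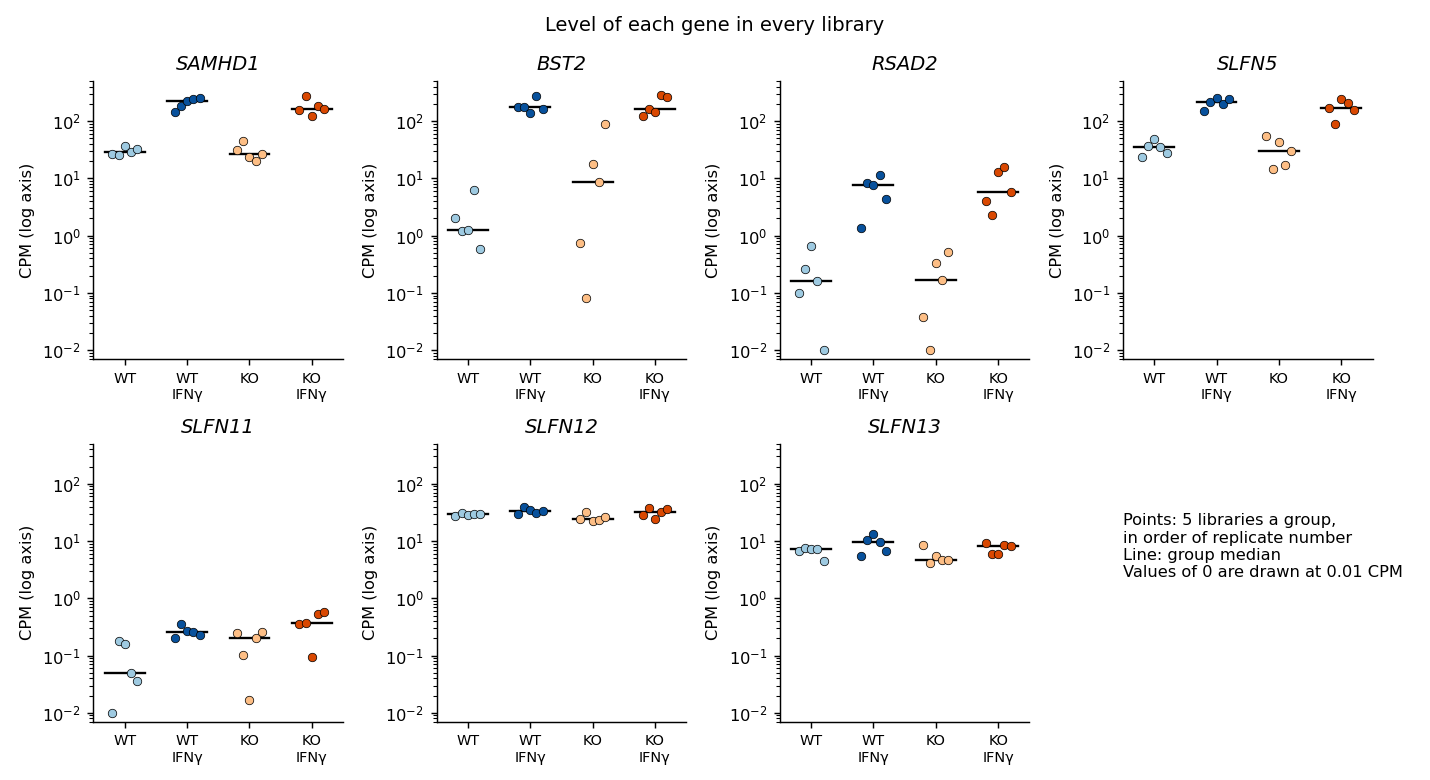
Level of the 7 genes in CPM (log axis) in each of the 20 libraries, with the 5 replicates of a group side by side and the group median as a line; values of 0 are drawn at 0.01 CPM. SAMHD1, BST2, RSAD2 and SLFN5 sit higher in every treated library than in any untreated library of the same genotype, SLFN12 is nearly level, and the untreated KO libraries of BST2 spread 1095-fold.

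**Figure D2:**
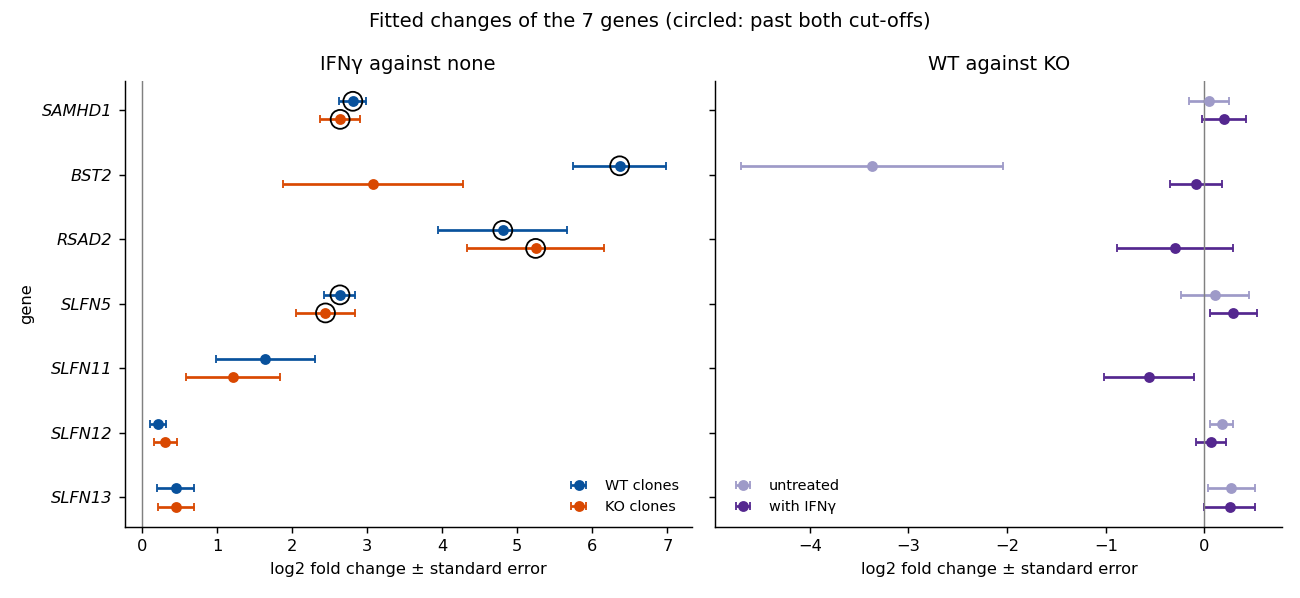
Log2 fold change with its standard error for the 7 genes, after IFNγ in WT and KO clones (left) and between WT and KO clones without and with IFNγ (right; positive is higher in WT); circles mark genes past both cut-offs. RSAD2 and SLFN11 were not tested between untreated WT and KO clones, and no gene is circled on the right, where BST2 in untreated cells lies at -3.37.

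SAMHD1 (chr20:36889773-36951708, minus strand) encodes a dNTP triphosphohydrolase that lowers the pool of DNA precursors available to retroviruses. Untreated WT replicates 1 to 5 held 26.6, 25.1, 37.0, 29.2 and 32.9 CPM, and the treated ones 142, 182, 226, 242 and 252 CPM. Untreated KO replicates held 30.7, 45.1, 23.2, 19.9 and 26.6 CPM, and the treated ones 154, 279, 124, 185 and 164 CPM. In both genotypes the lowest treated library was far above the highest untreated one. IFNγ moved SAMHD1 by a log2 fold change that came to 2.81 (SE 0.18, edgeR adjusted p = 3.54e-06) in WT clones and 2.64 (SE 0.27, edgeR adjusted p = 2.05e-04) in KO clones. Clone by clone the log2 difference was 2.77 ± 0.26 (SD, n = 5) in WT and 2.64 ± 0.35 (SD, n = 5) in KO, the narrowest spread of the 4 genes that rose in WT. Its exons share 2956 bases with TLDC2 on the opposite strand, a gene with at most 6 counts in any library. Without KO replicates 4 and 5 its KO log2 fold change was 2.495 (edgeR adjusted p = 0.0768).

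BST2 (chr19:17402939-17405630, minus strand), also called tetherin, encodes a membrane protein that holds budding virions on the cell surface. Untreated WT replicates held 2.06, 1.20, 1.24, 6.196 and 0.584 CPM, and the treated ones 178, 178, 139, 270 and 162 CPM. In WT clones BST2 rose by a log2 fold change of 6.36 (SE 0.62, edgeR adjusted p = 7.41e-05), the largest of the 7 genes. Its promoter window held the paired ISRE cores shown above, and a link between them and this rise was not tested.

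Untreated KO replicates 1 to 5 held BST2 at 0.753, 0.0810, 17.9, 8.54 and 88.7 CPM, which were 39, 4, 1090, 506 and 4480 counts. Replicates 3, 4 and 5 were above every untreated WT library, and replicate 2 was below every one of them. After IFNγ the KO replicates held 121, 164, 142, 290 and 262 CPM, within 2.4-fold of each other, whereas the untreated ones spanned 1095-fold. The groups did not overlap, yet the log2 fold change of 3.08 (SE 1.20, edgeR adjusted p = 0.147) was not called. By replicate number the fold was 161, 2021, 7.93, 34.0 and 2.95 in KO replicates 1 to 5, and 43.5 to 277 in the WT clones. Clone by clone the log2 difference was 5.47 ± 3.53 (SD, n = 5) in KO against 6.76 ± 0.96 (SD, n = 5) in WT. It was positive in all 10 clones. With 1 KO clone left out the fitted KO log2 fold change ran from 2.68, without the libraries of replicate 4, to 4.72 (edgeR adjusted p = 0.0733), without those of replicate 5. It was 3.10 (edgeR adjusted p = 0.347) without the libraries labelled KO replicate 3, and 4.49 (SE 1.59, edgeR adjusted p = 0.315) without both replicates 4 and 5. Clone by clone the KO difference without replicates 4 and 5 was 6.90 ± 3.75 (SD, n = 3).

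The spread of BST2 among untreated KO clones stood near the top of the table. Its SD on the log2 CPM scale was 3.79, the rank of 9 among 21052 genes, and none of the 1285 genes of like mean level in that group had a larger one. The same SD was 1.24 in untreated WT, 0.36 in treated WT and 0.55 in treated KO libraries. Untreated WT and KO clones differed by a log2 fold change of -3.37 (SE 1.33, WT minus KO), with an unadjusted p of 0.027 and an edgeR adjusted p of 0.980. Without KO replicate 5 it was -1.61, at an edgeR adjusted p of 0.995, and without the libraries labelled KO replicate 3 it was -3.45 (edgeR adjusted p = 0.999). Treated clones differed by -0.086 (SE 0.26, edgeR adjusted p = 0.996). Whether clone or ZBTB48 status accounts for the untreated levels was not tested.

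The untreated KO library with the highest level differed between IFNγ targets. Of the 478 genes that rose with IFNγ in the WT comparison and had a count in untreated KO libraries, replicate 5 held the highest level for 87, or 18.2%, and replicate 3 for 137, or 28.7%. Replicate 2 held the lowest level for 201 of them. The highest untreated KO library of BST2 was 4.94 times its next highest. Taking each gene's own highest and next highest untreated KO library, this ratio was larger for 7 of the 468 genes in which it could be formed, and its median was 1.25.

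BISPR, a long non-coding RNA gene on the opposite strand whose 5′ end lies 0.056 kb upstream of that of BST2, within the promoter bases shown above, ran with BST2. In untreated KO replicates 1 to 5 it held 0.0386, 0, 1.63, 0.607 and 3.52 CPM, the same order as BST2. Its mean rose from 0.274 to 6.16 CPM among WT clones, with a log2 fold change of 4.49 (SE 0.50, edgeR adjusted p = 1.95e-04). In KO clones the mean was 1.16 CPM untreated and 8.93 CPM treated, a log2 fold change of 2.94 (SE 1.02, edgeR adjusted p = 0.105) that was not called. CCDC194 has its 5′ end 11.4 kb from that of BST2. It had at most 2 counts in untreated WT libraries and 39 to 86 counts in treated ones. In WT clones it was called higher, at a log2 fold change of 6.37 (SE 0.64, edgeR adjusted p = 9.90e-05). In KO clones edgeR did not call its log2 fold change of 4.00 (SE 0.99, edgeR adjusted p = 0.0321). DESeq2 gave 4.03 there (DESeq2 adjusted p = 6.32e-04), past both cut-offs. The difference between WT and KO responses was not called for CCDC194 or BISPR (edgeR unadjusted p = 0.0839 and 0.197). MVB12A, whose 5′ end lies 0.111 kb from that of BST2 beside that of BISPR, had log2 fold changes of 0.18 (SE 0.10) in WT and 0.0047 (SE 0.10) in KO clones and was called in neither. These neighbours were picked by position, and BISPR and CCDC194 were singled out after their values were seen.

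**Figure D3:**
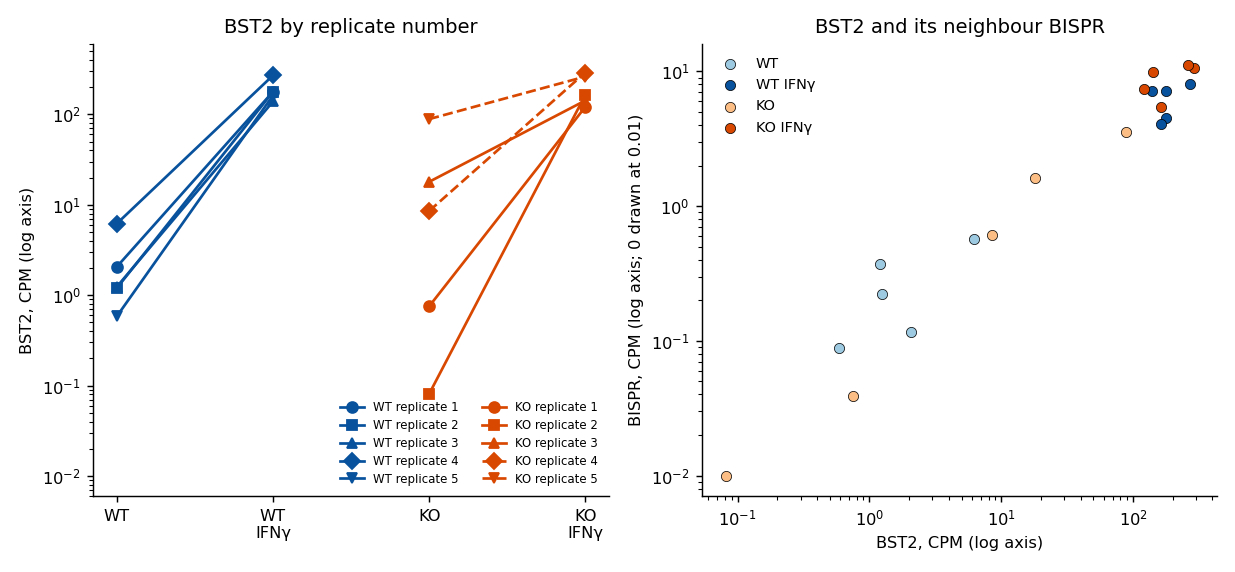
Left, BST2 in CPM (log axis) before and after IFNγ, joined by replicate number within WT (blue) and KO (orange), with dashed lines for KO replicates 4 and 5, whose numbers may not pair. Right, BST2 against BISPR in CPM (both axes log, 0 drawn at 0.01) in the 20 libraries; untreated KO libraries lie along the whole range, up to 88.7 CPM of BST2, while treated libraries gather at 121 to 290 CPM.

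RSAD2 (chr2:6865885-6898239, plus strand) encodes viperin, a radical SAM enzyme that makes a chain-terminating nucleotide from CTP. It was close to the detection floor without IFNγ, with 6, 15, 33, 10 and 0 counts in WT replicates and 2, 0, 20, 10 and 26 counts in KO replicates. Treated WT replicates held 1.34, 8.38, 7.63, 11.3 and 4.36 CPM, and treated KO replicates 4.04, 2.25, 12.8, 15.5 and 5.85 CPM. Every treated library was above every untreated one. Fitted log2 fold changes were 4.81 (SE 0.86, edgeR adjusted p = 0.0044) in WT and 5.24 (SE 0.91, edgeR adjusted p = 0.00603) in KO clones. A library at 0 counts allows up to 3 counts, so the fold of those clones depends on the prior count.

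The RSAD2 calls changed with the libraries that entered the fit. Without WT replicate 1, 2 or 4 the WT adjusted p by edgeR was 0.0153, 0.0363 or 0.0351. Without KO replicate 1, 3, 4 or 5 the KO adjusted p by edgeR was 0.0291, 0.0412, 0.0515 or 0.0218. With every gene kept in the test, including those with hardly any counts, edgeR gave adjusted p of 0.0141 in WT and 0.0157 in KO clones. The log2 fold change stayed between 4.41 and 5.96 in these left-out fits. Without both KO replicates 4 and 5 it was 5.61 in KO clones (edgeR adjusted p = 0.178).

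CMPK2, the head-to-head neighbour of RSAD2, encodes a nucleoside monophosphate kinase thought to supply CTP to viperin. Its mean was 1.84 CPM in untreated WT and 15.1 CPM in treated WT libraries, and 2.13 and 15.6 CPM in KO libraries. CMPK2 rose by a log2 fold change of 3.05 (SE 0.39, edgeR adjusted p = 5.42e-04) in WT and 2.87 (SE 0.29, edgeR adjusted p = 2.10e-04) in KO clones. Exons of the pair share 23 bases. Of the 8 genes listed as RSAD2 neighbours and cofactors, all of them tested, CMPK2 was the one called in both genotypes. Over all genes tested, 2.48% were called higher in WT clones and 1.7% in KO clones.

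SLFN5 (chr17:35243072-35273655, plus strand) is a nuclear Schlafen protein known to restrict herpesvirus transcription. Untreated WT replicates held 24.0, 36.6, 47.8, 35.1 and 28.1 CPM, and the treated ones 147, 215, 249, 198 and 247 CPM. Untreated KO replicates held 54.1, 14.3, 42.5, 16.9 and 30.6 CPM, and the treated ones 170, 88.9, 240, 209 and 155 CPM. Neither genotype had an overlap between treated and untreated libraries. SLFN5 rose by a log2 fold change of 2.64 (SE 0.21, edgeR adjusted p = 1.35e-05) in WT and 2.44 (SE 0.39, edgeR adjusted p = 0.00404) in KO clones. The untreated KO libraries spanned 3.79-fold and the untreated WT ones 1.99-fold. Without KO replicate 1, 3, 4 or 5 the KO adjusted p by edgeR was 0.0122, 0.0249, 0.0315 or 0.0306, above the cut-off of 0.01, and the log2 fold changes were 2.21 to 2.76. Without both replicates 4 and 5 it was 2.16 (edgeR adjusted p = 0.208).

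SLFN11 (chr17:35350305-35373621, minus strand), whose protein blocks stalled replication forks and the translation of viral proteins, was barely detected. Untreated WT replicates had 0, 10, 8, 3 and 2 counts and the treated ones 11, 21, 20, 15 and 12 counts. Untreated KO replicates had 13, 5, 1, 12 and 13 counts and the treated ones 22, 25, 5, 30 and 31 counts. Treated WT libraries were all above untreated ones, and the KO groups overlapped through replicate 3. The log2 fold change was 1.64 (SE 0.66, edgeR adjusted p = 0.145) in WT and 1.21 (SE 0.63, edgeR adjusted p = 0.277) in KO clones. With the clone as a block the WT value was 1.82 (edgeR adjusted p = 0.0226), also not called.

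SLFN12 (chr17:35410922-35433174, minus strand) encodes an RNase that binds PDE3A. Untreated WT replicates held 26.9, 31.5, 28.3, 29.7 and 29.6 CPM and the treated ones 29.3, 39.8, 34.6, 30.8 and 33.1 CPM. Untreated KO replicates held 24.3, 31.9, 22.3, 23.5 and 26.7 CPM and the treated ones 28.2, 37.2, 24.5, 32.6 and 36.9 CPM. Treated and untreated groups overlapped in both genotypes, although each of the 10 clones was higher when treated. The log2 fold change was 0.21 (SE 0.10, edgeR adjusted p = 0.224) in WT and 0.31 (SE 0.15, edgeR adjusted p = 0.242) in KO clones. SLFN12 was the steadiest of the 7 genes, with an SD of 0.085 on the log2 CPM scale in untreated WT clones, and 2507 of 2609 genes of like level had a larger one.

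SLFN13 (chr17:35435096-35449766, minus strand), whose protein cleaves tRNA and rRNA, was lower than SLFN12 throughout. Untreated WT replicates held 6.72, 7.45, 7.35, 7.39 and 4.53 CPM and the treated ones 5.38, 10.5, 13.1, 9.48 and 6.67 CPM. Untreated KO replicates held 8.65, 4.17, 5.41, 4.72 and 4.59 CPM and the treated ones 9.22, 5.99, 6.03, 8.48 and 8.13 CPM. The groups overlapped, with 4 of 5 WT clones and 5 of 5 KO clones higher when treated. Its log2 fold change was 0.45 (SE 0.25, edgeR adjusted p = 0.300) in WT and 0.46 (SE 0.24, edgeR adjusted p = 0.284) in KO clones.

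Along the Schlafen cluster of chromosome 17 the genes called higher in WT clones, SLFN5 and SLFN12L, were not adjacent. SLFN12L, whose 5′ end lies 87.9 kb beyond that of SLFN13, averaged 4.02 CPM in untreated and 12.2 CPM in treated WT libraries, a log2 fold change of 1.62 (SE 0.25, edgeR adjusted p = 0.00186). Its KO log2 fold change was 1.19 (SE 0.38, edgeR adjusted p = 0.0843), not called. The difference between its WT and KO responses was 0.41 (SE 0.46), also not called. SLFN11, SLFN12 and SLFN13 lie between SLFN5 and SLFN12L and were not called in either genotype, although all treated WT libraries of SLFN11 were above the untreated ones. LOC105371932 is an opposite-strand gene that shares 144 exon bases with SLFN5. Its log2 fold change was 1.34 (SE 0.29, edgeR adjusted p = 0.0131) in WT and 1.18 (SE 0.26, edgeR adjusted p = 0.0192) in KO clones. That was short of the cut-off by edgeR, although treated and untreated groups did not overlap in either genotype. DESeq2 put both past the cut-offs (DESeq2 adjusted p = 8.8e-05 in WT and 9.8e-05 in KO clones). The flanking NLE1 and SNHG30 were not called. SLFN14 had too few counts to be tested, and SLFNL1, a Schlafen-like gene outside the cluster, had a log2 fold change of 0.23 (SE 0.44, edgeR adjusted p = 0.821) in WT clones.

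**Figure D4:**
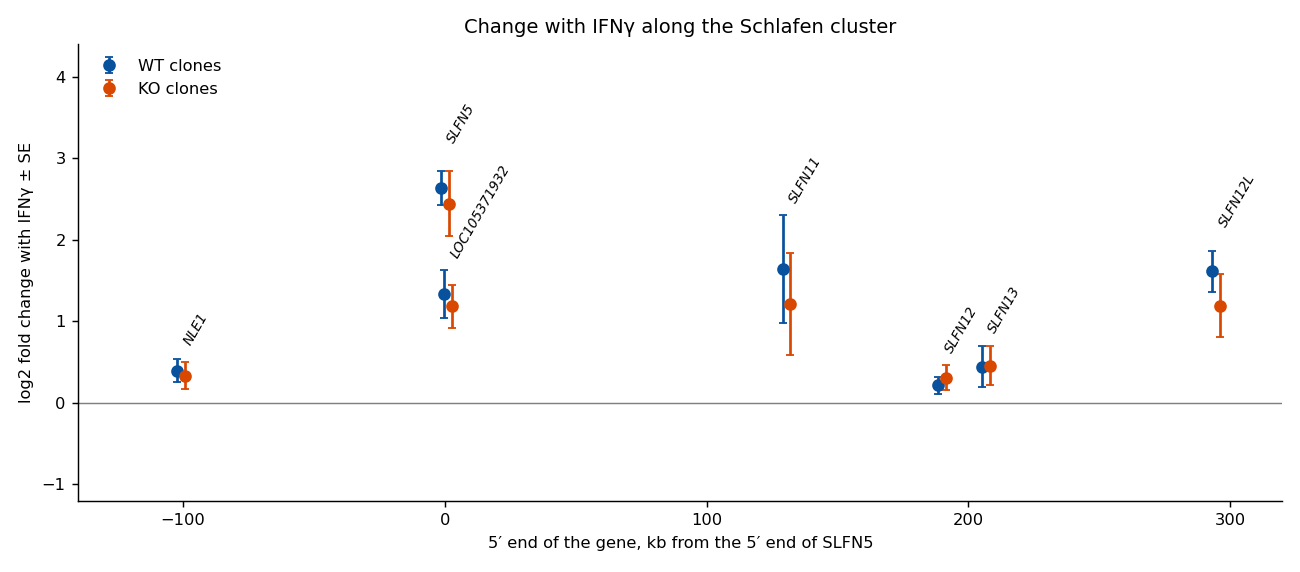
Log2 fold change with IFNγ (points, with standard errors) against the distance of each gene's 5′ end from that of SLFN5, in kb, for tested genes of the Schlafen cluster and NLE1 beside it in WT (blue) and KO (orange) clones, with the colours set slightly apart. SLFN5 lies highest, at 2.64 and 2.44, SLFN11 lies at 1.64 and 1.21 with wide errors, SLFN12 and SLFN13 lie under 0.5, and SLFN12L lies at 1.62 and 1.19.

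Per kilobase of exon, the order of the 7 genes changed with IFNγ. In untreated WT clones SLFN12 led with a mean of 10.0 CPM per kb, above SAMHD1 at 5.05 with no overlap between libraries. SAMHD1, SLFN5 at 3.25 and BST2 at 2.25 CPM per kb overlapped as neighbours in that order. SLFN13 followed at 0.602, with libraries that overlapped those of BST2, then RSAD2 at 0.0672 and SLFN11 at 0.0163 CPM per kb, which overlapped each other. In treated WT clones BST2 led at 185 CPM per kb, before SAMHD1 at 35.0, SLFN5 at 20.005 and SLFN12 at 11.5, with no overlap between these neighbours. RSAD2 at 1.85 and SLFN13 at 0.814 CPM per kb overlapped, and SLFN11 stayed last at 0.0501. In treated KO clones the order was the same, with SAMHD1 at 30.4, SLFN5 at 16.3 and SLFN12 at 10.9 CPM per kb, where SAMHD1 overlapped SLFN5 and SLFN5 overlapped SLFN12. In untreated KO clones the mean of BST2, 23.2 CPM per kb, stood first with replicate 5 at 88.6, and its libraries overlapped those of SLFN12 at 8.81.

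None of these genes that could be tested was called between WT and KO clones. ZBTB48 itself was not called either. Its WT minus KO log2 difference was 1.02 (SE 0.48, edgeR adjusted p = 0.98) in untreated cells. With IFNγ it was 0.82 (SE 0.53, edgeR adjusted p = 0.996). A missing call in these fits therefore does not show that a gene was unchanged. In untreated cells 5 of the 7 had enough counts to be tested and 0 were called by edgeR in either direction, where 0.0154% of 19505 genes were. At an unadjusted p under 0.05 there was 1, BST2, as were 4.79% of genes, and DESeq2 called 0 of the 5 against 0.0666% of genes. The WT minus KO log2 difference was 0.046 (SE 0.21) for SAMHD1, 0.11 (SE 0.34) for SLFN5, 0.17 (SE 0.11) for SLFN12 and 0.27 (SE 0.24) for SLFN13. Without the libraries labelled KO replicate 3 edgeR also called 0 of them.

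In treated cells all 7 were tested by edgeR, 0 were called against 0.0155% of 19383 genes, and 0 had an unadjusted p under 0.05, as 4.35% of genes did. DESeq2 called 0 of the 7 and 0.0825% of genes. The WT minus KO log2 difference was 0.20 (SE 0.22) for SAMHD1, -0.30 (SE 0.59) for RSAD2, 0.29 (SE 0.24) for SLFN5, -0.56 (SE 0.46) for SLFN11, 0.069 (SE 0.15) for SLFN12 and 0.25 (SE 0.26) for SLFN13. WT and KO libraries overlapped for each gene in both states, and only 1.0% of genes tested untreated and 0.805% treated showed no overlap. The standard error was widest for BST2 in untreated cells, at 1.33, and for RSAD2 in treated cells, at 0.59.

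How far the responses to IFNγ differed by genotype was tested directly over the 20 libraries. This fit took the treated and untreated libraries of a clone as independent. By edgeR it was called for 0 of the 7 genes and for 0 of all 21052, which is 0.0%, and 1 of the 7, BST2, had an unadjusted p under 0.05, as had 86 genes in all, or 0.409%. DESeq2 called 0. For BST2 the log2 difference of responses, WT minus KO, was 3.27 (SE 1.35), with an unadjusted p of 0.0253 and an edgeR adjusted p of 1.00. It was 1.65 (SE 1.19, edgeR adjusted p = 1.00) without KO replicate 5 and 3.26 (SE 1.51) without replicate 3. For the others it was 0.15 (SE 0.32) for SAMHD1, -0.45 (SE 1.19) for RSAD2, 0.18 (SE 0.45) for SLFN5, 0.41 (SE 0.94) for SLFN11, -0.11 (SE 0.18) for SLFN12 and -0.024 (SE 0.35) for SLFN13. The BST2 call in WT clones and its absence in KO clones is therefore not shown to be a difference between the genotypes.

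Other restriction factors gave the setting for these responses. Of 39 listed, 38 were tested and 14 rose in WT clones, where 2.48% of all genes tested did, 13 rose in KO clones, where 1.7% did, and 0 fell in either, with median log2 fold changes of 0.42 and 0.57 against -0.03 over all genes. GBP5, a guanylate-binding protein that impairs viral glycoproteins, averaged 0.0667 CPM in untreated and 805 CPM in treated WT libraries. IFITM1, which hinders membrane fusion, averaged 0.265 and 76.2 CPM, GBP2 3.31 and 479 CPM, and MX2, which blocks nuclear import of HIV, 0.698 and 9.91 CPM. MX1, named here after its values were seen, had a log2 fold change of -0.0079 (SE 0.24) in WT clones. TRIM38 was called in WT clones and not in KO clones, at log2 fold changes of 1.12 and 1.11. None of those tested was called between WT and KO clones.

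Calls were also counted for genes tied to the function of SAMHD1 and the Schlafen proteins, and for interferon signalling factors. Over all genes tested, 2.48% were called higher in WT clones and 1.7% in KO clones. Of 24 genes of dNTP supply and SAMHD1 control, all tested, 1 rose in WT clones and 0 in KO clones by edgeR or DESeq2. That gene, GUK1, encodes guanylate kinase and had log2 fold changes of 1.02 (SE 0.12, edgeR adjusted p = 3.31e-04) in WT and 0.96 (SE 0.14, edgeR adjusted p = 0.00224) in KO clones, the latter short of the 2-fold cut-off. Of 6 Schlafen partner genes 0 were called by edgeR in either genotype and 1 by DESeq2 in WT. By edgeR only PDE3A among them differed over 2-fold, and it was lower with IFNγ. Its log2 fold change was -1.51 (SE 0.3996, edgeR adjusted p = 0.0324) in WT clones. In KO clones it was -1.102 (SE 0.658, edgeR adjusted p = 0.352). Of 12 interferon signalling factors 7 rose in both genotypes, among them IRF1 at log2 fold changes of 4.96 in WT and 4.72 in KO.

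Across the 20 libraries, the gene most like BST2 was BISPR (Pearson r = 0.98), followed by SLC15A3 and IL15 (both 0.95). SAMHD1 was most like LAP3 (0.97), RSAD2 like HLA-F (0.97) and IFIT3 (0.96), and SLFN5 like CASP4, CEACAM1 and FLT3LG (each 0.97). SLFN12 was most like SUZ12 (0.89), SLFN11 like ZNF48 (0.85) and SLFN13 like LOC107986639 (0.84). These values describe likeness of log2 CPM over 20 libraries, 10 of them treated, that come in pairs from the same clones.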

How the data were processed

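RNA from 5 WT and 5 ZBTB48 KO clones of U2OS, with and without IFNγ, was made into stranded mRNA libraries and sequenced. The authors aligned reads with STAR 2.7.9a to GRCh38 and counted uniquely mapped reads per RefSeq gene with featureCounts 2.4.0, per the labels and the methods, and deposited raw counts. The strand setting of the counting is not given in the sources used here. Without it, reads of overlapping opposite-strand genes cannot be told apart.

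The deposited counts were tested with edgeR 4.0.16 in R 4.3.3 (TMM, filterByExpr, robust quasi-likelihood F test) across all genes, each comparison on its own 10 libraries and the difference of responses on all 20, with Benjamini-Hochberg adjustment. Calls used the cut-offs 0.01 and 2-fold of the study. Standard errors are the log2 fold change over the root of F. DESeq2 1.42.0 was an alternative, as were other scalings, no filter, left-out clones and the clone as a block. Log2 CPM used a prior count of 2. The fit was tested on simulated data. CPM per kb used the deposited exon lengths. Genes of like level lie within 0.5 log2 CPM of a gene's group mean. Genes within 250000 bases of each gene were taken as neighbours.

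Named genes were the 7 genes, ZBTB48, the 3 genes most alike in log2 CPM, up to 4 of each list by size of the WT change, and CMPK2. The genes and lists were chosen with earlier results of these data known. Treated and untreated libraries of a number come from the same clone by their labels. WT and KO clones share only a number. Floors cover counting error only, whereas the SDs and standard errors also take in the spread between clones.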

Additional observations from a re-analysis of the deposited data

Results flagged for a closer look

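SLFN13 in untreated WT replicate 5, at 4.53 CPM, stood apart from the other 4 untreated WT libraries. Its gap to the nearest library was 0.794 of the whole range of log2 CPM, above Dixon's critical value of 0.71 for 5 samples. It was 1 of 28 groups examined, and chance flags about 1 in 20 groups.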

How the results depend on the processing

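Of the log2 values of the 7 genes recomputed under the alternatives, 512 kept direction and side of the cut-off, 16 lost the call and 22 changed sign. The count of genes called in WT clones was 3 to 4 with a clone left out and 3 with no filter. In KO clones it was 1 to 3 with a clone left out, 2 with no filter, and 0 without both KO replicates 4 and 5. The fits with clones left out have fewer samples. With 1 clone left out, calls over all genes numbered 318 to 457 in WT and 131 to 490 in KO clones. With the clone as a replicate block 4 and 3 of the genes were called, as without it, and BST2 in KO clones was at 4.90 (edgeR adjusted p = 0.0295), or 4.70 (adjusted p = 0.0622) with treated KO 4 and 5 exchanged. The block changed no call of these genes. Over all genes it took the calls from 585 to 1414 in WT and from 379 to 721 in KO clones, or 1208 exchanged, and DESeq2 gave 976 and 825. Shrinkage by DESeq2 lowered BST2 to 3.30 in WT and 0.51 in KO clones, and RSAD2 to 1.09 and 1.68.

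Sign changes lay in differences that were never called, and their cause was not tested. Without both KO replicates 4 and 5, WT minus KO was -0.13 for SAMHD1 and -0.11 for SLFN5 untreated, 0.40 for BST2 and 0.074 for RSAD2 treated, and the difference of responses was 0.012 for SLFN12 and 0.22 for SLFN13. With 1 clone left out the untreated difference ran from -0.062 to 0.25 for SAMHD1 and from -0.081 to 0.39 for SLFN5. The treated difference ran from -0.26 to 0.11 for BST2, from -0.57 to 0.087 for RSAD2 and from -0.011 to 0.13 for SLFN12. The difference of responses ran from -1.16 to 0.32 for RSAD2, from -0.11 to 0.41 for SLFN5 and from -0.16 to 0.13 for SLFN13. SLFN11 had 0 to 31 counts a library and untreated RSAD2 0 to 33 counts.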
